A study of Sus scrofa with 226 samples.

Results

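The cells described here are pig dorsal root ganglion neurons rich in ADCYAP1 RNA, divided by whether they also held TRPA1 RNA. Levels are CPM, a gene's count per 1000000 counts of its cell. The cells were chosen by the measured values of ADCYAP1, OSMR and TRPA1. A neuron was kept when ADCYAP1 was at 200 CPM or more and OSMR under 50 CPM. Of the neurons kept, 65 had TRPA1 at 20 CPM or more (TRPA1-positive) and 49 had TRPA1 under 5 CPM (TRPA1-negative). Another 19 lay between both limits and were not compared. The 93 neurons that did not meet the ADCYAP1 and OSMR limits make up the rest of the series. All neurons came from wild-type (WT) pigs, 10 in number and 11 to 20 weeks old, and were cultured for 1, 2 or 3 days with no other treatment named in the labels. The ganglia were taken at cervical, thoracic and lumbar levels without a label for the level of each cell. Each neuron was first recorded electrically, and the tip of the recording pipette and the cell itself, taken up by a second pipette, went into 1 tube for Smart-Seq2 sequencing, an approach called Patch-seq. The study as a whole looked for molecular markers of C-fibres that do not respond to mechanical stimuli, and the split by TRPA1 is one way to divide its peptide-rich cells.

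TRPA1 is a cation channel of nociceptors, the sensory neurons that report damage, and opens to electrophilic irritants such as mustard oil and to oxidised lipids. In rodents it is found mostly in peptidergic neurons that also carry TRPV1, the capsaicin and heat channel, whereas TRPM8, the menthol and cold channel, marks a largely separate group. ADCYAP1 encodes the neuropeptide PACAP, which widens vessels and acts on second-order neurons, and OSMR is the oncostatin M receptor, a subunit of the interleukin-31 receptor of itch neurons. NPPB (natriuretic peptide B) and SST (somatostatin) are peptides of itch neurons in mice, and P2RX3 is an ATP-gated channel of C-fibres.

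The TRPA1-positive cells came from all 10 animals and the TRPA1-negative cells from 9. Animals 1 to 8 gave 3, 4, 4, 8, 4, 11, 5 and 2 TRPA1-positive cells, against 2, 5, 2, 8, 10, 13, 7 and 1 TRPA1-negative cells. Animal 9 gave 16 TRPA1-positive cells against 1 TRPA1-negative cell, and animal 10 gave 8 against 0, so that animals 9 and 10 held 24 of the positive cells and hardly any negative ones. By day, 42 TRPA1-positive cells were taken after 1 day, 21 after 2 days and 2 after 3 days, against 24, 17 and 8 TRPA1-negative cells. As a share of the cells within the ADCYAP1 and OSMR limits, pooled over animals, the positive cells were 53.8% at 1 day, 47.7% at 2 days and 18.2% at 3 days. The cells of 3 days came from animals 2, 4 and 7, which also gave cells at 1 and 2 days. Animal 2 gave 4, 0 and 0 positive cells at 1, 2 and 3 days against 2, 1 and 2 negative cells, animal 4 gave 1, 6 and 1 against 2, 4 and 2, and animal 7 gave 2, 2 and 1 against 2, 1 and 4. These counts are small, and a difference between days was not tested.

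TRPA1, ADCYAP1 and OSMR chose the cells, so their levels are given as a description with no test. TRPA1 ran from 20.1 to 1505 CPM in the positive cells (median 88 CPM), and was at 0 in 39 of the 49 negative cells, the highest of which had 4.68 CPM. The positive cells nearest to the limit had 20.1, 21.05 and 21.9 CPM of TRPA1, and the highest cells left between the limits had 19.1, 16.1 and 15.9 CPM. At the lower limit, the nearest cells left out had 5.87, 6.03 and 6.29 CPM, and the negative cells just inside it had 4.68, 4.10 and 3.80 CPM. ADCYAP1 had a median of 1943 CPM in the positive cells and 1279 CPM in the negative cells, with the lowest kept cell at 214.2 CPM and the highest cell under the limit at 170 CPM. OSMR had a median of 2.34 CPM in positive cells and 0 in negative cells; the highest kept cell had 47.9 CPM and the lowest ADCYAP1-high cell above the limit had 50.3 CPM.

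How deep a cell was sequenced bears on the word negative. A count of 0 allows up to 3 counts of the total, which for the 39 cells at 0 came to 0.883 to 26.4 CPM (median 4.71 CPM). In 4 of them this limit was above 20 CPM and in 18 it was 5 CPM or more. TRPA1 RNA up to the limit of a cell could thus go uncounted there. Smart-Seq2 has no molecular identifiers, so such limits cover counting error only. When every cell was thinned to 100000 counts, 57 of the 65 positive and 45 of the 49 negative cells stayed in their class. The thinned classes held 62 positive and 54 negative cells, so other cells had joined them. Thinning cannot add counts to the 39 cells at 0, so it does not show whether these lacked TRPA1 RNA.

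The number of genes with a count above 0 differed between the classes as well. Per cell it had a median of 14681 genes in the TRPA1-positive cells and 11128 in the TRPA1-negative cells, with quartiles of 12526 to 16186 against 8223 to 13832. At least 12000 genes were detected in 52 of 65 positive cells against 22 of 49 negative ones, and under 10000 in 6 against 21. Averaged by animal, positive cells had 14034 ± 1621 genes and negative cells 12313 ± 2491 (SD, n = 9 animals), a difference of 1721 that was positive in 6 of 9 animals (exact two-sided sign-flip test, p = 0.082). In the 7 animals with at least 2 cells of each class the difference was 2696 (same exact test, p = 0.0312), and without animal 8 it was 2283 (exact p = 0.0312). The negative classes of animals 8 and 9 are 1 cell each. After thinning to equal depth the medians were 9069 and 7347 genes, in ranges of 4143 to 11695 and 2689 to 10668 that overlapped, and this difference was not tested by animal.

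**Figure D1:**
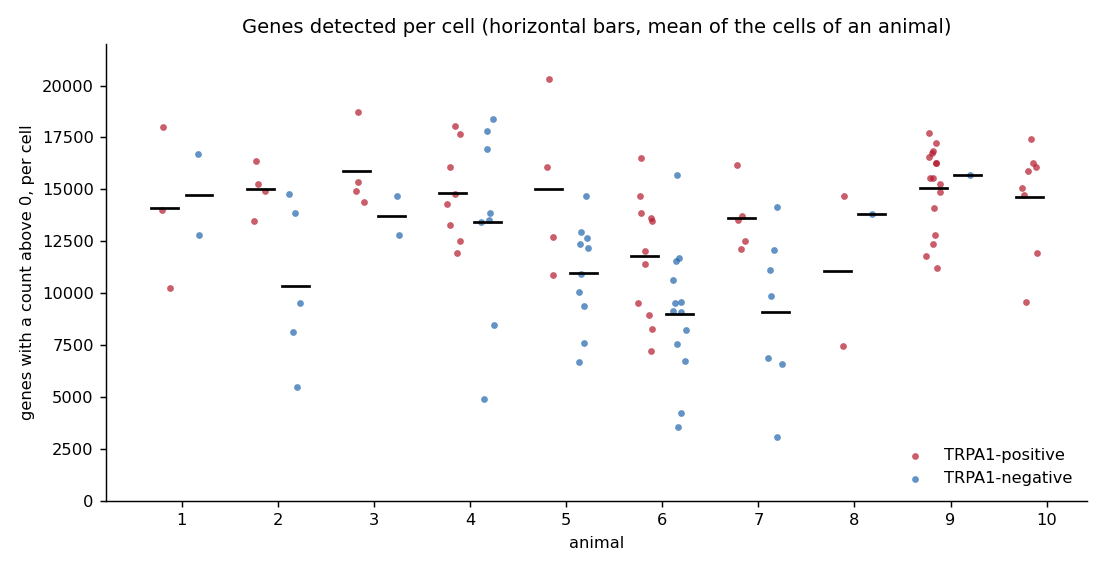
Genes detected per cell (vertical axis) for each animal (horizontal axis), with TRPA1-positive cells in red left of TRPA1-negative cells in blue; points are cells and bars are means. Cells under 10000 genes number 6 in the positive class and 21 in the negative class, and animal 10 has no negative cell.

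Neuronal RNA was present in both classes, and so was RNA of genes listed as markers of other ganglion cells. STMN2 had a median of 4808 CPM in positive and 4800 CPM in negative cells, UCHL1 8685 and 7193 CPM, and SNAP25 594 and 622 CPM, with all cells above 0 for these 3 genes. RBFOX3 was at a median of 0 in both. Of 14 satellite glia markers 4, of 12 Schwann cell markers 5, of 14 macrophage markers 9, of 9 fibroblast markers 8 and of 9 endothelial and mural markers 7 had a median of 0 in both classes. Among the rest, more markers had the higher median in the positive cells: 8 satellite glia, 7 Schwann cell and 4 macrophage markers against 2, 0 and 1 with the higher median in negative cells. The summed satellite glia markers ran from 156.5 to 2846 CPM in positive cells (median 593) and from 20.3 to 10669 CPM in negative cells (median 584). The summed macrophage markers ran from 1.98 to 2103 CPM in positive cells (median 95.5) and from 0 to 4791 CPM in negative cells (median 38.6). The summed Schwann cell markers ran from 166.2 to 2979 CPM (median 1145) in positive cells and from 0 to 4720 CPM (median 772) in negative cells, with PMP22 alone at a median of 598 CPM in positive and 336 CPM in negative cells and MBP and MAG at a median of 0 in both. Mitochondrial genes took a median of 4.33% of the counts in positive and 2.40% in negative cells. The part of these values, and of the number of genes detected, in the results that follow was not tested beyond the alternatives stated beside them.

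Across all genes, no difference between TRPA1-positive and TRPA1-negative cells passed the test. Counts were summed over the cells of an animal and class, and 7 animals with at least 2 cells in each class gave 14 sums of 39 positive and 47 negative cells, with 3054501 to 21477027 counts per sum. In edgeR's quasi-likelihood fit, blocked by animal, 0 of 13464 genes passed an adjusted p of 0.05 in either direction (0% of genes tested). At an unadjusted p under 0.05, 491 genes (3.65%) were higher and 277 (2.06%) lower in the positive cells. The positive sum was the higher one in 7 of 7 animals for 1.56% of genes, and the lower one in 7 of 7 for 1.16%. The ranges of both classes did not overlap for 6 genes higher (0.0446%) and 1 gene lower (0.00743%) in positive cells, SETD1A, named after its values were seen. DESeq2 on the same sums called 75 genes higher (0.557%) and 30 lower (0.223%), of which 73 and 30 had an unadjusted edgeR p under 0.05, so whether single genes pass depends on the tool. Over all genes the log2 fold changes had a median of 0.06, and 7386 of 13464 were above 0. Fold changes below are positive over negative from the edgeR fit with their standard errors (SE), and levels are log2 CPM of the sums.

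TRPM8, the menthol and cold channel, had the smallest p-value of all genes not used to choose the cells, and its sums were lower in the TRPA1-positive cells. TRPM8 ran from 2.38 to 8.38 in the positive sums (median 3.97, log2 CPM) and from 5.50 to 9.82 in the negative sums (median 8.15). In each of the 7 animals the positive sum was the lower one, although the ranges overlapped because animal 2 had 8.38 in its positive and 9.82 in its negative sum. The log2 fold change was -3.54 ± 0.49 (SE, edgeR adjusted p = 0.0871), which did not pass, and DESeq2 gave -3.57 (adjusted p = 4.06e-11). Few cells carried this difference. Of the 47 negative cells in the sums 8, from 6 animals, had TRPM8 at 200 CPM or more and held 96.4% of that class's TRPM8 counts, while 1 of 39 positive cells did and held 68.8%.

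Read cell by cell, TRPM8 did not separate the classes. It had a median of 9.34 CPM in the positive cells and 3.97 CPM in the negative cells, and was above 0 in 53 of 65 positive and 26 of 49 negative cells. Reaching 20 CPM were 22 of 65 positive (33.8%) and 13 of 49 negative cells (26.5%), whereas 3 of 65 (4.62%) against 8 of 49 (16.3%) reached 200 CPM. The highest positive cell had 2206 CPM, in animal 9, and the highest negative cell 2789 CPM, in animal 4. The mean over cells of log2(CPM + 1), which weighs cells equally, gave a difference of -0.37 (limma adjusted p = 0.675), and cells of 1 day in culture gave -0.41 (edgeR adjusted p = 0.990). Without animal 2 the log2 fold change was -3.91 and passed (edgeR adjusted p = 0.0395), and with TRPA1 at 50 CPM or more in the positive class it was -3.98 (edgeR adjusted p = 0.0124). The lowest value among the alternatives was -4.95, with the number of genes detected as a covariate (edgeR adjusted p = 0.588).

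Of 7 listed genes of cold neurons with an identifier in the files, 4 were tested and 0 passed. TRPM8 itself, at -3.54, is among these 4, so the list is not separate from the TRPM8 values above. Their log2 fold changes had a median of -1.45, against 0.14 with means over cells of log2(CPM + 1) and 0.03 in cells with at least 12000 genes detected. FOXP2, a transcription factor, had -2.86 ± 0.93, CDH8, a cadherin, 0.10 ± 0.86 and PRKAG2, a subunit of AMP-activated kinase, -0.04 ± 0.24 (0.66 with means over cells). FOXP2 was at a median of 0 CPM in both classes and reached 20 CPM in 4 of 65 positive and 6 of 49 negative cells. TAFA1, a secreted protein, and PLCD4, a phospholipase C, were chosen after their values were seen, since DESeq2 called both lower with TRPM8. PLCD4 ran from -1.81 to 4.17 log2 CPM in the positive sums (median 0.32) and from -1.81 to 6.93 in the negative sums (median 5.25). TAFA1 ran from -1.81 to 2.69 in the positive sums (median -1.11) and from -1.81 to 5.00 in the negative sums (median 4.22). A value of -1.81 is a sum with no count. Their log2 fold changes were -4.01 ± 1.14 for PLCD4 and -4.37 ± 1.14 for TAFA1 (edgeR adjusted p = 0.843 for each). With means over cells PLCD4 had -0.74 and TAFA1 -1.23 (limma adjusted p = 0.203 and 0.100). In cells with at least 12000 genes detected TAFA1 had -2.23, and PLCD4 was not tested.

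**Figure D2:**
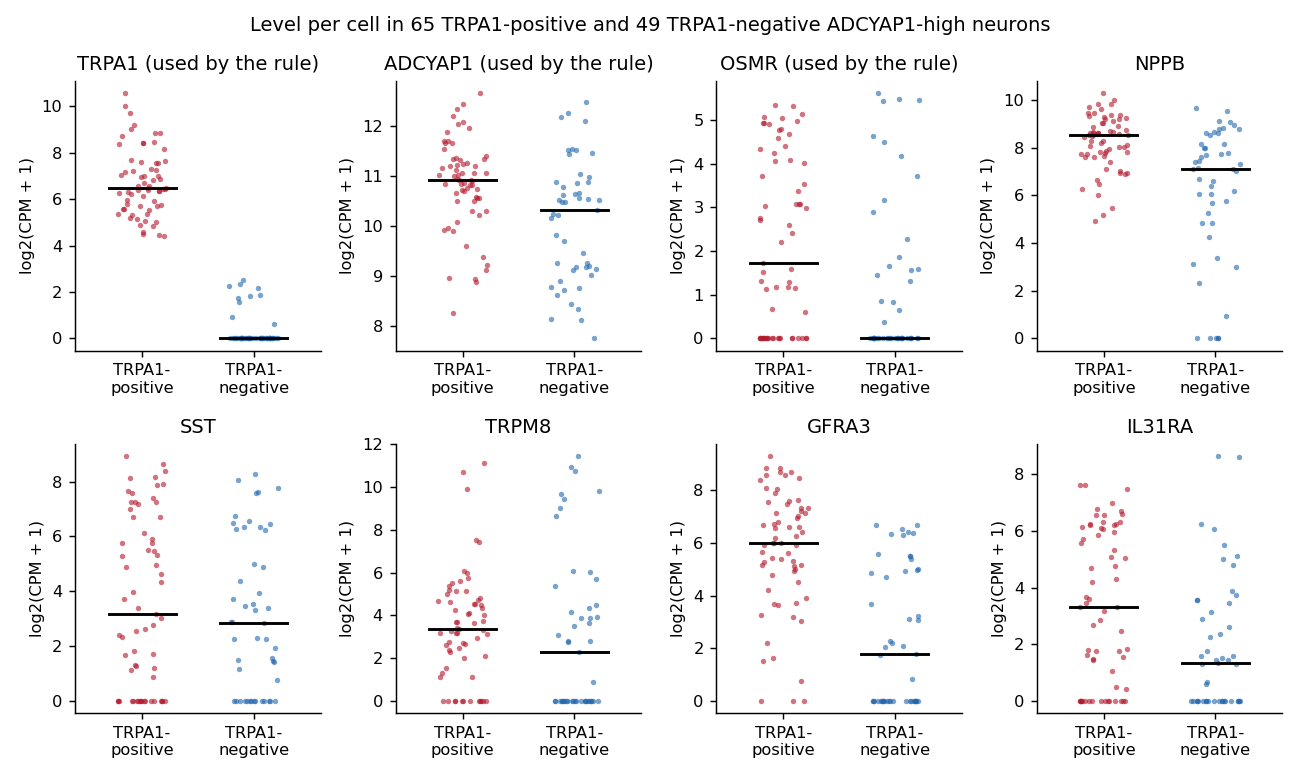
Level per cell as log2(CPM + 1) for 8 genes, with 65 TRPA1-positive cells in red left of 49 TRPA1-negative cells in blue; each point is a cell and each bar the median. TRPA1, ADCYAP1 and OSMR chose the cells; TRPM8 reached 200 CPM in 3 positive and 8 negative cells, and GFRA3 had medians of 64 CPM in positive and 2.47 CPM in negative cells.

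CHODL, a membrane lectin, had the smallest p-value among genes higher in the TRPA1-positive cells. CHODL ran from 6.32 to 8.68 in the positive sums (median 7.03, log2 CPM) and from 4.19 to 6.62 in the negative sums (median 5.43). The positive sum was the higher one in 7 of 7 animals and the ranges overlapped. The log2 fold change was 1.91 ± 0.28 (SE, edgeR adjusted p = 0.104), and it passed with DESeq2 (adjusted p = 8.69e-07) and with TRPA1 at 50 CPM or more (edgeR adjusted p = 0.0124, fold change 2.27). By cell, CHODL had a median of 61.97 CPM in positive and 16.8 CPM in negative cells. Among the 93 neurons outside the ADCYAP1 and OSMR limits its median was 230 CPM, so neither class was the richest in CHODL.

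Receptors for glial cell line-derived factors were also among the 10 genes of smallest p. GFRA3, the co-receptor for artemin, ran from 6.11 to 8.32 in the positive sums (median 6.96, log2 CPM) and from -1.81 to 6.04 in the negative sums (median 4.38). All positive sums lay above all negative ones, and animal 3 had no GFRA3 count in its negative sum. The log2 fold change of GFRA3 was 3.53 ± 0.77 (edgeR adjusted p = 0.843; DESeq2 adjusted p = 0.000216). GFRA3 had a median of 64 CPM in positive and 2.47 CPM in negative cells, and reached 20 CPM in 50 of 65 positive (76.9%) and 16 of 49 negative cells (32.7%). RET, the signalling receptor that works with GFRA3, ran from 7.92 to 8.67 in the positive sums (median 8.33) and from 6.67 to 7.98 in the negative sums (median 7.38). Its log2 fold change was 0.94 ± 0.20, higher in 7 of 7 animals (edgeR adjusted p = 0.843; DESeq2 adjusted p = 0.0191). GFRA1, the GDNF co-receptor, had 0.27 ± 0.26 and KIT, the stem cell factor receptor, 0.49 ± 0.51. Of 11 receptors for neurotrophic factors tested, 0 passed, 6 had a value above 0 and 5 below, and their median was 0.18.

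The artemin co-receptor and the cold channel did not exclude each other in a cell. With both genes read at 20 CPM, 16 of 65 positive cells had TRPM8 and GFRA3 together, 34 had GFRA3 alone, 6 had TRPM8 alone and 9 had neither. Of the negative cells 6 of 49 had both, 10 had GFRA3 alone, 7 had TRPM8 alone and 26 had neither. Cells with neither thus made up 13.8% of the positive and 53.1% of the negative class. Under 10000 genes were detected in 6 of 65 positive and 21 of 49 negative cells. How far this bears on the share of cells with neither gene was not tested.

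Neuropeptides were mostly of higher value in the positive cells and none passed. TAC1, which encodes substance P, ran from 11.50 to 13.87 in the positive sums (median 12.94, log2 CPM) and from 10.12 to 12.77 in the negative sums (median 11.82). Its log2 fold change was 1.23 ± 0.24, higher in 6 of 7 animals (edgeR adjusted p = 0.686; DESeq2 adjusted p = 0.00886). NPPB ran from 7.52 to 9.29 in the positive sums (median 8.79) and from 5.52 to 8.17 in the negative sums (median 7.40), with a log2 fold change of 1.29 ± 0.35, higher in 7 of 7 animals (edgeR adjusted p = 0.843; DESeq2 adjusted p = 0.065). NPPB reached 20 CPM in 65 of 65 positive and 38 of 49 negative cells, at medians of 367 and 138.02 CPM. GAL, galanin, had 1.30 ± 0.48, and the granins SCG2 and SCG3 had 0.92 ± 0.27 and 0.06 ± 0.23. Of 20 neuropeptide and granin genes tested 0 passed and 16 had a value above 0, against 7386 of 13464 over all genes. Their median was 0.55 against 0.06 over all genes.

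SST and P2RX3, which were named together with TRPA1 and NPPB as marks of these cells with results of the same data in view, gave less. SST ran from -0.01 to 7.59 in the positive sums (median 6.59, log2 CPM) and from 0.41 to 6.27 in the negative sums (median 5.92). The positive sum was the higher one in 6 of 7 animals, and in animal 5 it was -0.01 against 2.73 in the negative sum. Its log2 fold change was 1.04 ± 0.73 (edgeR adjusted p = 0.941), and SST reached 20 CPM in 28 of 65 positive and 15 of 49 negative cells. P2RX3 was removed by the filter on low counts and has no test. Its median was 0 CPM in both classes, and 15 of 65 positive and 7 of 49 negative cells had any count. Of the 4 purinergic receptors tested, P2RX5 had the highest value, 2.37 ± 0.79 (edgeR adjusted p = 0.843), and was at 3.64 to 5.24 log2 CPM in the positive sums against -1.81 to 4.09 in the negative sums.

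The list of itch and inflammation receptors, with signalling proteins such as JAK1 and STAT3 among its members, had 16 tested genes and 0 passing. Its median log2 fold change was 0.60. Values above 0 numbered 14, against 7386 of 13464 over all genes. IL31RA, which pairs with OSMR as the interleukin-31 receptor, ran from 4.42 to 7.31 in the positive sums (median 5.19, log2 CPM) and from 0.22 to 5.95 in the negative sums (median 1.88). IL31RA was higher in 6 of 7 animals, with a log2 fold change of 2.63 ± 0.63 (edgeR adjusted p = 0.843; DESeq2 adjusted p = 0.00162). The signalling proteins of the list had values near 0, 0.07 ± 0.20 for JAK1 and 0.13 ± 0.30 for STAT3. IL31RA had a median of 8.94 CPM in positive and 1.57 CPM in negative cells, against 419 CPM in the 93 neurons outside the limits.

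Channels gave a similar picture. TRPV1 ran from 4.82 to 6.75 in the positive sums (median 5.95, log2 CPM) and from 3.70 to 5.47 in the negative sums (median 5.20). Its log2 fold change was 1.03 ± 0.31, higher in 6 of 7 animals (edgeR adjusted p = 0.843), and TRPV1 reached 20 CPM in 50 of 65 positive and 19 of 49 negative cells. Of 11 TRP channels tested besides TRPA1, 0 passed and the median was 0.27. The sodium channels of nociceptors SCN9A, SCN10A and SCN11A, which encode NaV1.7, NaV1.8 and NaV1.9, had 0.67 ± 0.23, 1.22 ± 0.47 and 1.22 ± 0.51, each higher in 6 of 7 animals. By cell SCN10A had medians of 46.3 CPM in positive and 1.75 CPM in negative cells, and SCN11A 83.01 and 10.9 CPM. The sodium channel list had 11 tested members, 0 passing and a median of 0.33. Of its values 7 were above 0, against 7386 of 13464 over all genes. KCND3, the A-type potassium channel KV4.3, was not named by its level, but from its list or after its values were seen. KCND3 had 2.31 ± 0.71 (DESeq2 adjusted p = 0.0221) and 0.37 with genes detected as a covariate. The 27 potassium channel genes had a median of 0.10 and 8 calcium channel genes 0.15. PIEZO2, the main touch channel, was at a median of 0 CPM in both classes (log2 fold change -0.72 ± 1.06 in the sums and 0.11 with means over cells), and 12 mechanotransduction and acid-sensing channels had a median of 0.28.

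Among the 10 genes of smallest p higher in the positive cells were also CYP1B1, SLC17A6, CD9, SEMA3C and RARRES1. CYP1B1, a cytochrome P450, had 1.605 ± 0.29 and RARRES1 2.22 ± 0.53, both higher in 7 of 7 animals. SEMA3C, a secreted axon guidance protein, ran from 8.24 to 9.09 in the positive sums and from 4.74 to 7.84 in the negative sums, with no overlap and a log2 fold change of 1.61 ± 0.38. SLC17A6, the vesicular glutamate transporter VGLUT2, and CD9, a tetraspanin, had 0.65 ± 0.15 and 0.66 ± 0.15. NOS1, neuronal nitric oxide synthase, was chosen after its values were seen and had 3.13 ± 0.79 (DESeq2 adjusted p = 0.00245), reaching 20 CPM in 10 of 65 positive and 2 of 49 negative cells. For CYP1B1 the edgeR adjusted p was 0.474, and for the other 5 it was 0.843.

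Lower beside TRPM8 were NADK2, RNF157, PIK3R1, TMEM186, DNAJC24, SEZ6L, NUDT12, CCNI and ANKRD28, each with an edgeR adjusted p of 0.843. PIK3R1, the regulatory subunit of phosphoinositide 3-kinase, ran from 6.91 to 8.94 in the positive sums (median 7.83, log2 CPM) and from 7.498 to 11.11 in the negative sums (median 9.29). Its log2 fold change was -1.34 ± 0.34, lower in 7 of 7 animals. NADK2, the mitochondrial NAD kinase, had -0.77 ± 0.18 and NUDT12 -1.03 ± 0.28, while RNF157, a ubiquitin ligase, and DNAJC24 had -1.03 ± 0.26 and -1.21 ± 0.33. The values of NADK2, RNF157, DNAJC24 and NUDT12 turned to 0.32, 0.28, 0.09 and 0.34 when the mean over cells of log2(CPM + 1) replaced the sums, a scale on which the median of all genes moved to 0.49. ISL1 and RUNX1, transcription factors of nociceptors, had -0.96 ± 0.28 and -0.96 ± 0.38, and the 21 sensory neuron transcription factors had a median of -0.12 with 0 passing (0.31 with means over cells, below the 0.49 of all genes).

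**Figure D3:**
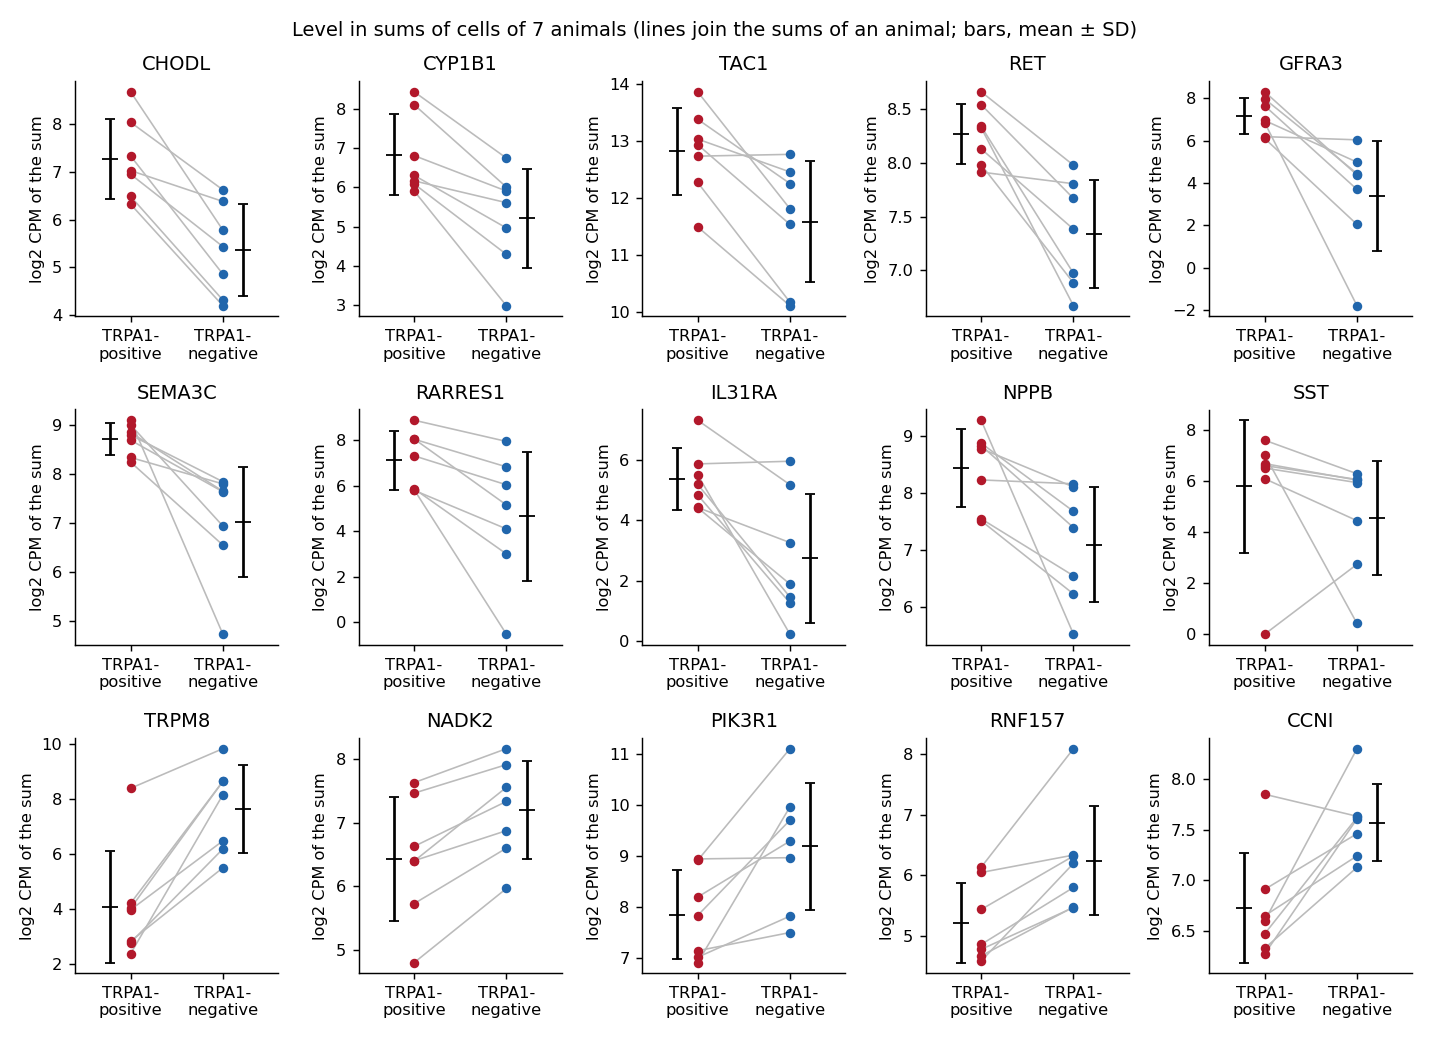
Log2 CPM of the summed cells of 7 animals for 15 named genes, TRPA1-positive in red left of TRPA1-negative in blue; lines join an animal's sums and bars are mean ± SD. All positive sums lie above all negative ones for GFRA3 and SEMA3C, and TRPM8 is lower in the positive sum of each animal, with animal 2 at 8.38.

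Over the other lists 0 genes passed in any. The medians of their log2 fold changes were 0.21 for 20 partners and sensitisers of TRPA1 and TRPV1, 0.16 for 17 glutamate and GABA receptors and transporters, 0.42 for 8 non-peptidergic or low-threshold C-fibre genes, and -0.55 for 7 A-fibre markers. For 11 peptide receptors the median was -0.26 (0.57 with means over cells), for 11 HCN and chloride channels 0.31, for 19 axotomy genes 0.17 and for 18 stress genes 0.12. Among other cells, the medians were 0.36 for 8 Schwann cell, 0.26 for 4 macrophage and 0.39 for 3 T cell and mast cell markers, of which KIT was itself found in these neurons. For 11 satellite glia, 4 fibroblast and 2 endothelial and mural markers they were -0.12, -0.39 and -0.26 in the sums, against 0.53, 0.20 and 0.28 with means over cells. The 13 protein-coding genes of the mitochondrial genome had -0.18, with 12 below 0, and 0.61 with means over cells.

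**Figure D4:**
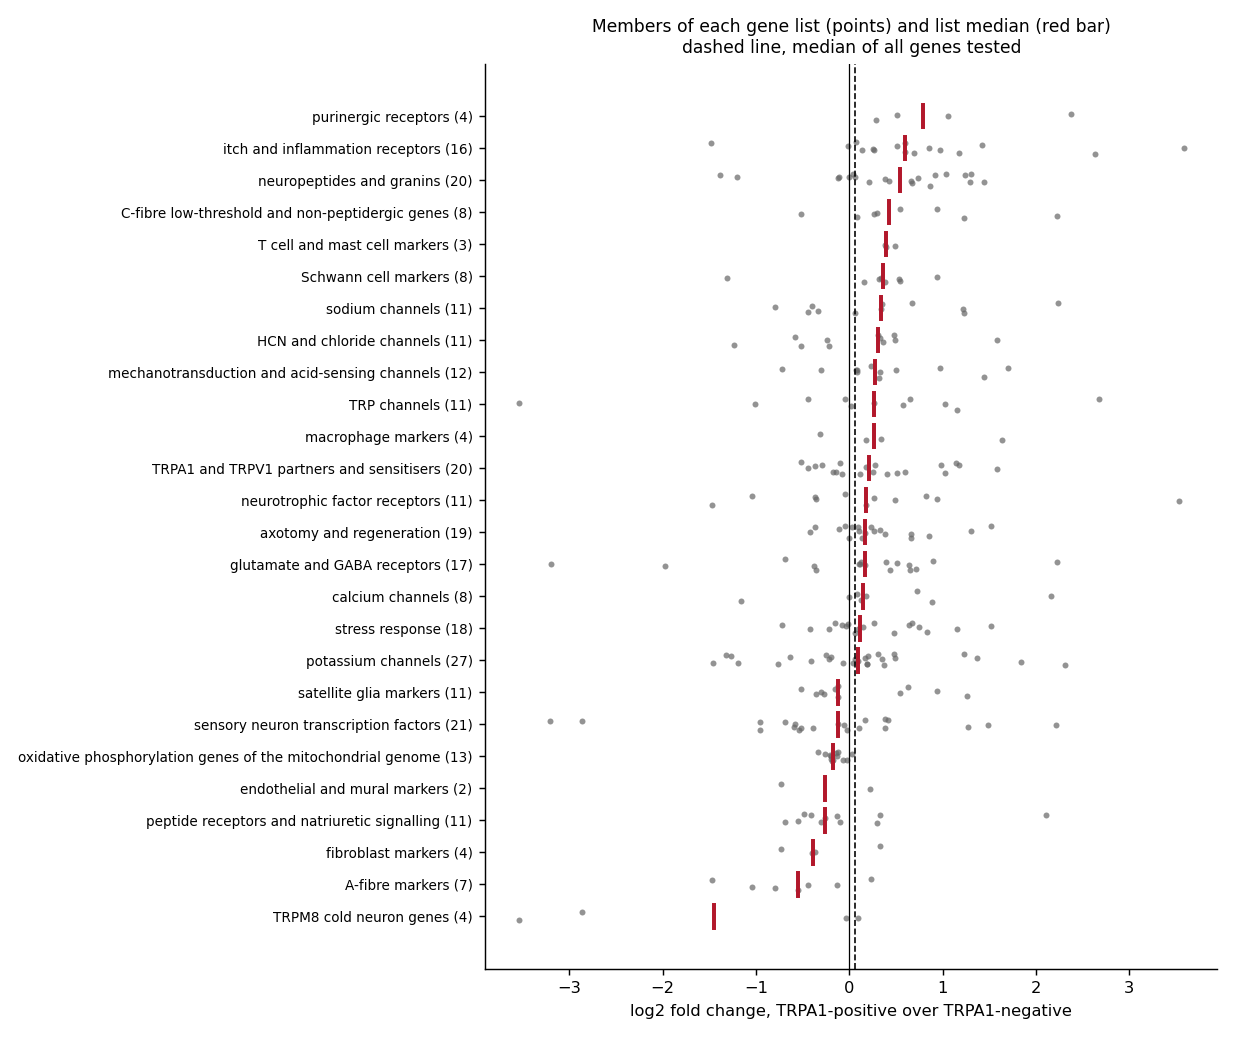
Log2 fold change of TRPA1-positive over TRPA1-negative sums (horizontal axis) for the tested members of each list (points, number in brackets) with the list's median (red bar); the dashed line is the median of all genes, 0.06. The highest medians are those of purinergic receptors (0.78, 4 genes) and itch and inflammation receptors (0.60). The lowest is that of cold neuron genes (-1.45, 4 genes with TRPM8 among them), which was 0.14 with means over cells.

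With the mean number of genes detected as a covariate in the edgeR fit, 0 genes passed, with 245 higher and 180 lower at an unadjusted p under 0.05. Several fold changes moved by more than 1.5 times on the unlogged scale, and are given here as log2 values. Closer to 0 were PIK3R1 at -0.41, RNF157 at -0.41, SEMA3C at 0.84, IL31RA at 1.90, SCN10A at 0.61 and KCND3 at 0.37. Farther from 0 were CHODL at 2.57, GFRA3 at 4.18, NPPB at 2.54, SST at 3.72, GAL at 2.26, SCG2 at 1.75, NOS1 at 4.48, ANKRD28 at -2.24, FOXP2 at -4.42, PLCD4 at -5.26 and TAFA1 at -5.40. GFRA1 turned to -0.16. In cells with at least 12000 genes (25 positive and 19 negative cells of 6 animals), GFRA3 had a log2 fold change of 4.00, CHODL 2.48, NPPB 1.78, TAC1 1.82, TRPV1 1.43 and TRPM8 -2.54, while SEZ6L had -0.31 and ANKRD28 -0.76. In that set 0 genes passed in edgeR. This limit was set after results were known.

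The 19 cells between the TRPA1 limits are given as a description. NPPB had a median of 298 CPM there and RET 225.4 CPM, and both reached 20 CPM in 19 of 19 cells. GFRA3 had a median of 18.0 CPM and TRPM8 3.66 CPM, and SST reached 20 CPM in 14 of 19 cells at a median of 49.4 CPM. These cells had a median of 13739 genes detected.

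The recordings were compared over animals, and no parameter passed. The cell table gives the name of each parameter but no unit, so values are printed as deposited and names are not expanded where the sources do not explain them. Of 45 parameters tested in up to 9 animals, 0 passed in either direction after Benjamini-Hochberg adjustment (0%), and at an unadjusted exact p under 0.05 there were 7 higher (15.6%) and 1 lower (2.22%) in the positive cells. With 9 animals the smallest p the exact sign-flip test can give is 0.00391. It was reached by 2 parameters, and 4 would have been needed for any to pass. These 45 parameters come from the same recordings, and several are related to each other.

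AP_max ran from 40.4 to 56.1 over the animal means of the positive cells and from 27.03 to 50.1 over those of the negative cells, and was higher in positive cells in 9 of 9 animals. It averaged 49.4 ± 5.03 in positive and 44.3 ± 7.34 in negative cells (SD, n = 9 animals), a difference of 5.10 ± 4.21 (SD of the differences, exact sign-flip p = 0.00391, adjusted p = 0.0879). Loc_APHW averaged 3.23 ± 3.46 in positive and -0.85 ± 4.34 in negative cells, and also differed in one direction in 9 of 9 animals (difference 4.08, exact p = 0.00391, adjusted p = 0.0879). Apamp averaged 110.1 ± 4.81 in positive and 105.4 ± 8.17 in negative cells and was higher in 8 of 9 animals (exact p = 0.0156, adjusted p = 0.201).

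Measures of the current at threshold had higher means in the positive class and did not pass. Rheobase, the smallest current step that evokes an action potential, averaged 141.6 ± 40.5 in positive and 85.5 ± 53.5 in negative cells (SD, n = 9 animals). It was higher in 7 of 9 animals, with animals 2 and 5 the other way (exact p = 0.0391, adjusted p = 0.220). Among the 7 were animals 8 (200 against 60) and 9 (142.5 against 25), each with 1 negative cell. By cell the medians of Rheobase were 120 and 90, in ranges of 15 to 700 and 10 to 550. The parameter named pA_threshold averaged 98.1 ± 72.4 in positive and 24.6 ± 35.8 in negative cells and was higher in 8 of 9 animals (exact p = 0.0273, adjusted p = 0.201), animal 1 going the other way at -46.7 against 60.

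X100Hz was the parameter with the smallest p among those lower in positive cells. It averaged 6.03 ± 2.34 in positive and 10.2 ± 4.84 in negative cells and was lower in 8 of 9 animals (exact p = 0.0312, adjusted p = 0.201), and the single negative cell of animal 9 had 20. ADS_RT_ABS1 and ADS_RT_ABS75 were measured in 6 of these animals. ADS_RT_ABS1 averaged 3.49 ± 0.24 in positive and 2.74 ± 0.47 in negative cells and ADS_RT_ABS75 3.59 ± 0.25 and 2.86 ± 0.49 (exact p = 0.0312 for each, the smallest that 6 animals allow). Both were higher in positive cells in 6 of 6 animals. Without pairing by animal these 2 passed in a permutation test, which also took the positive mean of animal 10. With pairing they could not pass after adjustment unless many more of the 45 parameters had p-values as small. The outcomes with and without pairing are therefore not comparable.

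Size and resting potential overlapped widely between the classes. Diameter averaged 35.8 ± 3.89 in positive and 32.5 ± 5.53 in negative cells (exact p = 0.211), and RMP -59.7 ± 5.52 and -55.7 ± 4.26 (exact p = 0.125), each n = 9 animals. With at least 12000 genes detected per cell, AP_max differed by 4.62 and Loc_APHW by 4.63, with no parameter passing. Without cells of TRPM8 at 20 CPM or more the differences were 2.73 and 2.89.

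**Figure D5:**
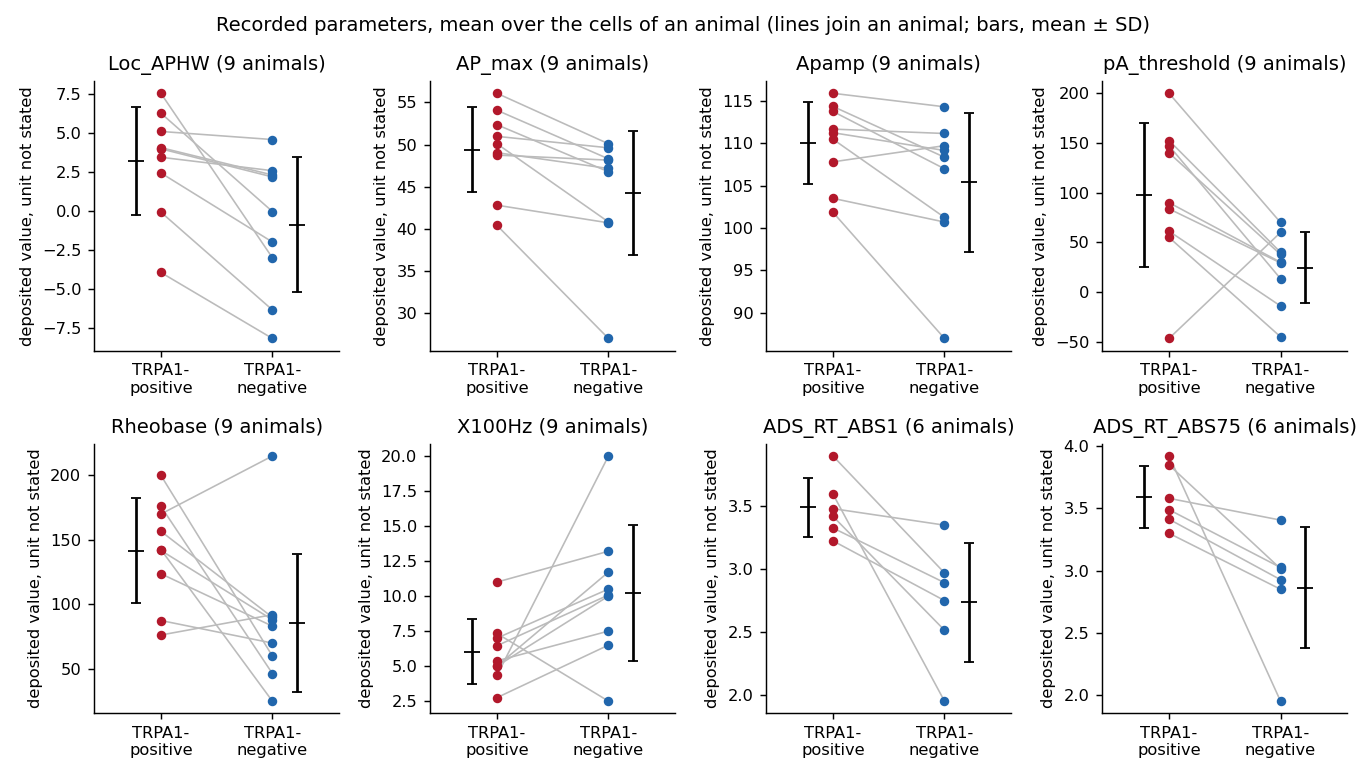
Animal means of 8 recorded parameters, as deposited and without a stated unit, TRPA1-positive in red left of TRPA1-negative in blue; lines join an animal and bars are mean ± SD. AP_max and Loc_APHW are higher in the positive cells of 9 of 9 animals, and X100Hz is lower in 8 of 9.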

How the data were processed

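Each sample is 1 neuron of a pig dorsal root ganglion. The authors deposited estimated counts per gene and cell in 1 table, and 52.1% of the values above 0 were not whole. The recorded parameters were deposited by the authors as numbers with no stated unit, and 43 of 269 lines of that table belong to no sample used. Base calling used bcl2fastq 2.20, per the submitters' processing notes. No source used here names the aligner, the counter, the strand setting or the genome build. A gene name table gave symbols for 14867 of 30420 identifiers.

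The members and the gene lists were chosen with earlier results of these data known. Animals are numbered as in the deposited cell table. Within an animal, the counts of all cells of a class were added up (2 cells or more, 7 animals), rounded, filtered with filterByExpr, scaled with TMM and tested with edgeR 4.0.16 (R 4.3.3) blocked by animal, and p-values were adjusted by Benjamini and Hochberg's method over 13467 genes at 0.05. The 3 genes of the rule were left out of every count. DESeq2 1.42.0 and limma 3.58.1 were alternatives. Log2 CPM of sums used a prior count of 2. Recorded parameters (measured in at least 70% of cells, 2 exact copies of others left out) were compared between classes by flipping the signs of the animals' differences in an exact two-sided test (scipy 1.17.1), adjusted over 45. The animal pairs the classes, since cells of both came from each pig compared. Named genes were those of the rule and up to 4 of highest mean log2 CPM in each list. As no gene passed, the 10 of smallest p in each direction with a symbol and a mean log2 CPM over 3 were added. Others, such as KCND3, GAL, SCN10A, RUNX1 and PIEZO2, were taken outside these rules, from the lists or after their values were seen. The gene fit was also run on simulated data, and the outcome is not reported here. Cell totals ran from 109726 to 4455869 counts in ADCYAP1-high cells, with a highest correlation between any pair of cells of 0.907. Left-out animals, other limits, 1 day only, thinned counts, other scaling and cells with at least 12000 genes were tried as well. Some genes are not reported here.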

Additional observations from a re-analysis of the deposited data

Results flagged for a closer look

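In 10 of 70 groups of animals tested, 1 animal stood far from the others by Dixon's test, where chance flags about 1 in 20 groups. Each share below is the gap from that animal to the nearest other one, divided by the whole range of its group. In the TRPA1-positive sums TRPM8 was highest in animal 2, at 8.38 log2 CPM (share 0.695), SST was lowest in animal 5, at -0.011 (share 0.802), and the highest CCNI was 7.85 (share 0.596). In the TRPA1-negative sums the lowest SLC17A6 was 6.56 log2 CPM (share 0.629) and the lowest SEMA3C 4.74 (share 0.584). The highest RNF157 there was 8.09 (share 0.670) and the highest CCNI 8.30 (share 0.570). Among the recordings of TRPA1-negative cells, animal 2 was lowest for AP_max, at 27.03 (share 0.594), and for Apamp, at 86.98 (share 0.503). Animal 5 was highest for Rheobase among the TRPA1-negative means (share 0.647), and its mean there was the highest of either class.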

How the results depend on the processing

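The counts of genes past the threshold moved with the tool and the limits. Without the filter on low counts edgeR passed 2 genes higher (CHODL and TAC1) and 1 lower (TRPM8) in TRPA1-positive cells. With TRPA1 at 50 CPM or more it passed 1 (CHODL) and 1 (TRPM8). DESeq2 called 75 (0.557%) and 30 (0.223%) of 13464 genes, and limma on means over cells 551 (4.09%) and 0 (0%). On the scale of means over cells, 3507 genes were higher and 37 lower at an unadjusted limma p under 0.05. Leaving out 1 animal in turn gave 0 higher and between 0 and 1 lower, the 1 being TRPM8 without animal 2. On means over cells NADK2, RNF157, DNAJC24 and NUDT12 reversed to 0.32, 0.28, 0.090 and 0.34, on a scale where the median of all genes was 0.49. Without cells of TRPM8 at 20 CPM or more, RNF157 reversed to 0.18, SEZ6L to 0.72 and SST to -0.37. TRPM8 itself came to 0.15 there, a value that says nothing of its stability, since the cells were left out for their TRPM8. The difference in genes detected was 2696 (exact p = 0.0312) with at least 2 cells per animal and class, 2218 (exact p = 0.043) with TRPA1 at exactly 0, and 1353 to 2283 with 1 animal left out. Without the replicate block (animal left out of the pairing) 2 recorded parameters passed as higher, in a test that also took the positive means of animal 10. The edgeR fit without the block gave 0 genes higher and 0 lower, with 257 and 331 at an unadjusted p under 0.05. The cause of these shifts was not tested. Of the alternative values for single genes, 543 kept their direction and side of the threshold and 37 newly passed, and all but 2 of those for single parameters kept both. Depth limits which cells count as TRPA1-negative, since 18 of 39 cells at 0 could hold 5 CPM.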

Other observations

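TRPA1 RNA was also present in cells that did not meet both the ADCYAP1 and the OSMR limit, at a median of 1.80 CPM over 93 cells and up to 89.4 CPM. Of the cells within both limits, the share that was TRPA1-positive ran between 34.9% at 15 weeks (43 cells of 2 pigs) and 72.7% at 17 weeks (22 cells of 1 pig). With 1 or 2 pigs per age, age and animal cannot be told apart.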
